A study of Homo sapiens with 4 samples.

Results

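The genes described here are the translation initiation and elongation factors, chosen by name: protein-coding genes whose symbol starts with EIF1, EIF2B, EIF2S, EIF3, EIF4, EIF5, EIF6 or EEF. Kinases, methyltransferases, pseudogenes and EIF1AY were left out. The rule reads names only and gave 58 genes of 64252 rows in the count table. RNA was sequenced from SK-N-BE(2) cells, a MYCN-amplified line from a human neuroblastoma, in 2 groups of 2 libraries. In shCDK5RAP3 the cells carried a short hairpin RNA against CDK5RAP3, whose protein is an adaptor of the UFM1 ligase that modifies the ribosome at the endoplasmic reticulum. In shControl they carried a control hairpin. How many hairpins were used, and their sequences, is not stated in the labels. Nothing in the labels says that the 2 libraries of a group came from separate cultures, so p-values measure only the spread between these libraries, which may be technical.

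Protein synthesis starts when eIF2, loaded with GTP and the initiator tRNA, joins the small ribosomal subunit together with eIF1, eIF1A, eIF3 and eIF5. The eIF4F complex, made of the cap-binding eIF4E, the scaffold eIF4G and the RNA helicase eIF4A, brings this subunit to the capped end of an mRNA. After start codon selection, eEF1A delivers each aminoacyl-tRNA and eEF2 moves the ribosome along the mRNA. Many mRNAs of this machinery begin with a C followed by a run of pyrimidines, a start through which mTORC1 and LARP1 control their translation. MYC proteins are known activators of genes for ribosome production and translation in neuroblastoma and other tumours.

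A pyrimidine run near the annotated start is printed for 6 members because such mRNAs are best known for it. Each stretch holds 30 bases of RefSeq sequence (GRCh38.p14) in the gene's direction, and the capitals mark the run of at least 5 C or T that begins with C. The run starts at the annotated first base of the mRNA in EEF1A1, EEF2, EEF1B2 and EIF4A2. In EIF3F it starts 4 bases before that base, and in EIF4B at base 11 of the mRNA, so the stretch of EIF4B lies after its annotated start. EEF1A1 lies at chr6:73521011-73521040 on the minus strand, EEF2 at chr19:3985442-3985471 on the minus strand, EEF1B2 at chr2:206159887-206159916, EIF3F at chr11:7987325-7987354, EIF4A2 at chr3:186783569-186783598 and EIF4B at chr12:53006458-53006487, the last 4 on the plus strand.
EEF1A1: tgaacgttCTTTTTCgcaacgggtttgccg
EEF2: tcagcgttCTCTTCCgccgtcgtcgccgcc
EEF1B2: cttcgggtCCTTTTTCCTCTCTTCagcgtg
EIF3F: cgcttccgCCTCCTTCTTTCTCgacaagat
EIF4A2: gccgctgtCTTTTCagtcgggcgctgagtg
EIF4B: tttgcgttCTCTTTCCCTCTCCCaacatgg

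The shCDK5RAP3 libraries held 28653689 and 30138393 counts and the shControl libraries 28721740 and 28755837. CDK5RAP3 itself averaged 57.8 ± 0.966 CPM (counts scaled to library size) in shCDK5RAP3 and 93.0 ± 7.90 CPM in shControl (SD, n = 2 each), 62.1% of the control level (edgeR adjusted p = 0.000163). All 8 markers of noradrenergic neuroblastoma were counted in every library, and their summed level was 4534 to 4678 CPM in shCDK5RAP3 and 7074 to 7521 CPM in shControl. Most of that sum is MYCN, which fell to 2847 CPM in shCDK5RAP3, against 4797 CPM in shControl (edgeR log2 change -0.75, adjusted p = 6.74e-06). The 5 fibroblast markers summed to 183 to 195 CPM in shCDK5RAP3 and 329 to 331 CPM in shControl. Leukocyte markers summed to at most 3.34 CPM in any library with CD3E at 0, endothelial markers to at most 1.80 CPM, and epithelial markers to at most 4.36 CPM with KRT5 and CDH1 at 0. The part of these differences in the results below was not tested.

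Of the 58 genes, 56 passed the filter on low counts and were tested. EIF4E1B, an eIF4E form of germ cells, had 0 counts in all 4 libraries. EEF1E1-BLOC1S5, a read-through of 2 neighbouring genes, had 2 and 12 counts in shCDK5RAP3 and 0 and 0 counts in shControl. Among the 56 tested, 26 rose (46.4%) and 8 fell (14.3%) at an edgeR adjusted p under 0.05, against 19.7% and 21.8% of all 18775 tested genes. In either direction that was 34 members (60.7%), against 41.5% of tested genes. The groups did not overlap for 49 members (87.5%), against 71.4% of all tested genes. Translation factors are abundant, and abundant genes pass more often. Among genes with a mean log2 CPM of at least 5, 25 of 49 members rose (51.0%) and 6 fell (12.2%), against 33.7% and 25.5% of 6592 such genes, and the groups did not overlap for 44 members (89.8%), against 81.6%. That level was chosen after the values were seen. With library size alone in place of TMM factors, 23 members rose and 12 fell. Without shCDK5RAP3 replicate 2 the count of rises was 10 and of falls 4, without shCDK5RAP3 replicate 1 it was 20 and 5, and without a filter on low counts 15 and 7. Fewer cells of a type and less RNA per cell cannot be told apart in such libraries.

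The changes were small. The median log2 change was 0.17 over the members and -0.00 over all tested genes, and the median absolute change was 0.23 and 0.37. Among genes with a mean log2 CPM of at least 5, the median change was 0.18 over the members and 0.06 over all, and the median absolute change was 0.23 and 0.27. Absolute changes under 0.5 were found for 49 of the 56 members (87.5%) and for 62.2% of all tested genes. Only EIF4G3 and EIF4EBP3 passed the test with a change of at least 2-fold, both of them lower in shCDK5RAP3, where 10.5% of all tested genes passed with such a change. Together the 58 genes held 2.71% and 2.73% of the counts in the shCDK5RAP3 libraries and 2.62% and 2.62% in the shControl libraries.

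**Figure D1:**
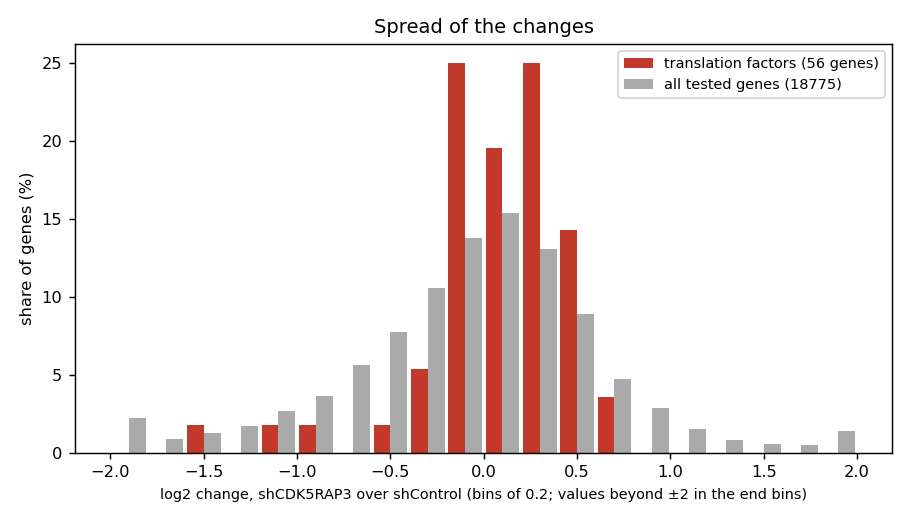
Share of genes (vertical axis, %) by log2 change, shCDK5RAP3 over shControl (horizontal axis, bins of 0.2, end bins hold all values beyond ±2), for the 56 tested translation factors beside all 18775 tested genes. The factors crowd near 0, with a median of 0.17 against -0.00, and 2 of them lie below -1.

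**Figure D2:**
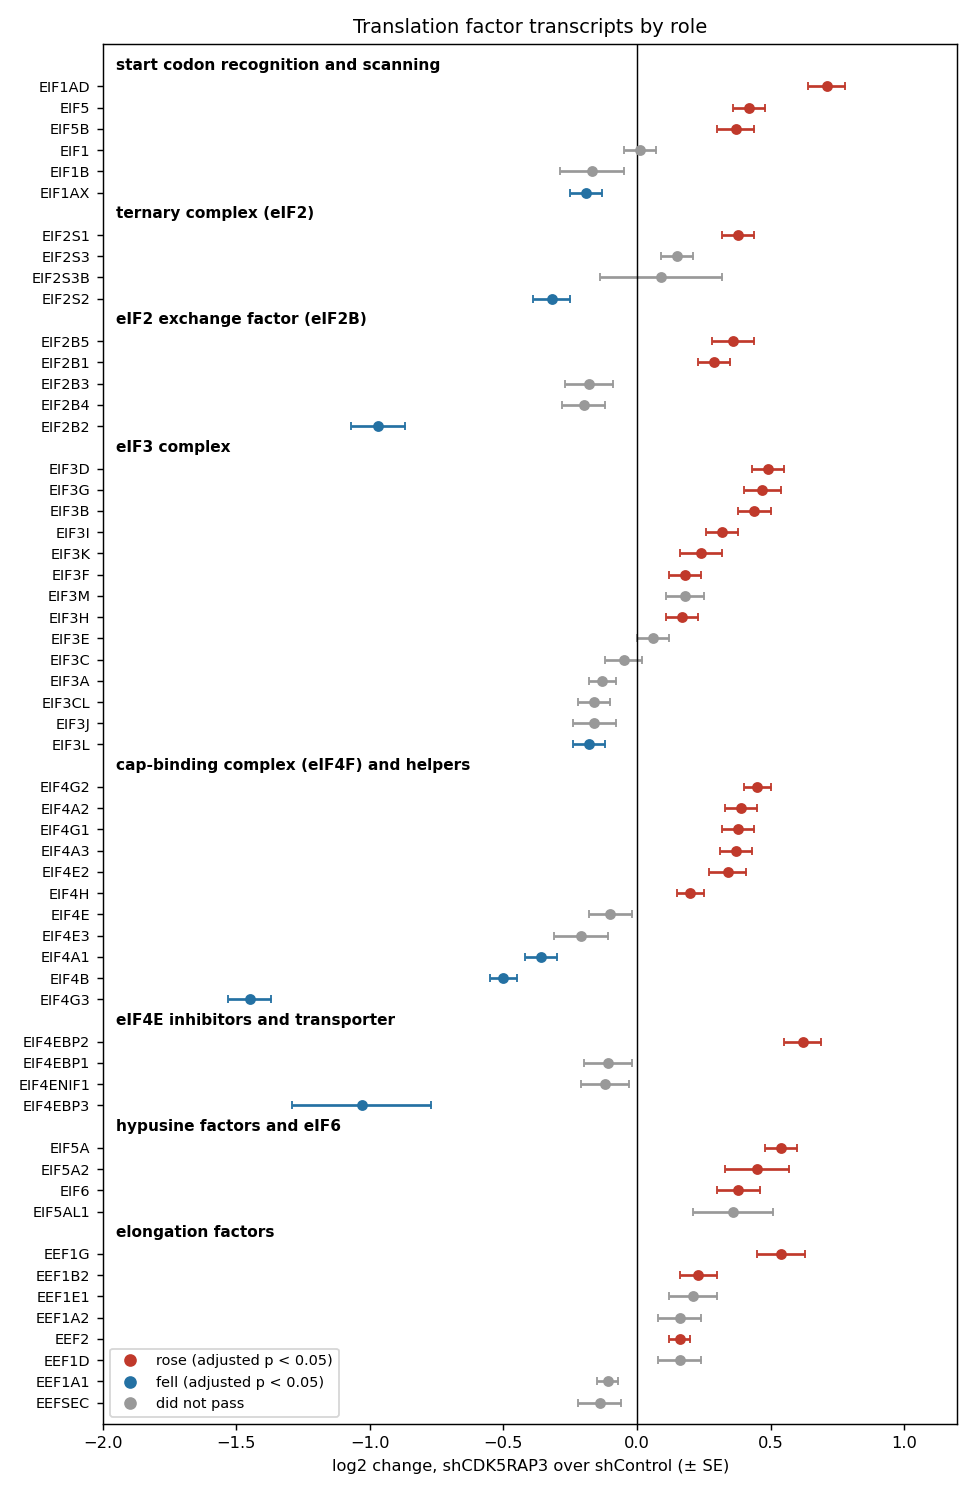
Log2 change of each tested factor (horizontal axis, shCDK5RAP3 over shControl), grouped by role down the page. Points are edgeR estimates with bars of 1 SE, red where the gene rose, blue where it fell and grey where it did not pass an adjusted p of 0.05. EIF4G3 stands farthest left at -1.45 and EIF1AD farthest right at 0.71.

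Counts in each role below stand beside 19.7% of all tested genes higher and 21.8% lower. Among genes with a mean log2 CPM of at least 5, the shares were 33.7% and 25.5%. Of the 6 factors of scanning and start codon choice, 3 rose, 1 fell and 2 did not pass. EIF1AD, a nuclear protein related to eIF1A that takes part in small subunit maturation, had the largest rise of all members. It had 81.2 and 84.3 CPM in shCDK5RAP3, against 49.0 and 52.4 CPM in shControl, with no overlap (log2 change 0.71 ± 0.07 SE, edgeR adjusted p = 8.86e-05). EIF5, which makes eIF2 hydrolyse its GTP at the start codon, had 369 and 364 CPM in shCDK5RAP3, against 279 and 267 CPM in shControl, and both shCDK5RAP3 libraries were above both controls (0.42 ± 0.06, adjusted p = 0.000499). EIF5B, the GTPase that joins the ribosomal subunits, had 253 and 253 CPM in shCDK5RAP3, against 206 and 185 CPM in shControl (0.37 ± 0.07, adjusted p = 0.00239). EIF1AX, the X-linked gene of eIF1A, was the member that fell, with 110 and 114 CPM in shCDK5RAP3 and 130 and 125 CPM in shControl (-0.19 ± 0.06, adjusted p = 0.0379). EIF1, which holds the ribosome open while it scans, was the most counted of this role after correction for depth, with 371 and 374 CPM in shCDK5RAP3 and 359 and 381 CPM in shControl, inside the spread of the controls. Its paralog EIF1B had 23.6 and 28.7 CPM in shCDK5RAP3 and 27.9 and 30.9 CPM in shControl, and the groups overlapped. The EIF5B call was lost without shCDK5RAP3 replicate 2 (adjusted p = 0.0671, range over the alternatives 3.73e-06 to 0.0671). That of EIF1AX was lost without either shCDK5RAP3 library (0.27 and 0.142), without shControl replicate 1 (0.0961), with upper-quartile factors (0.0715), without a filter (0.0888) and in DESeq2 (0.0608), with a range of 0.00547 to 0.27.

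The alpha and beta subunits of eIF2 moved in opposite directions. EIF2S1 encodes the alpha subunit, whose phosphorylation lowers translation under stress, and had 185 and 192 CPM in shCDK5RAP3, against 144 and 145 CPM in shControl (0.38 ± 0.06, adjusted p = 0.0011). EIF2S2, the beta subunit, had 108 and 107 CPM in shCDK5RAP3, against 129 and 140 CPM in shControl (-0.32 ± 0.07, adjusted p = 0.00442). In both genes the groups were separate, in opposite directions. Per kilobase of transcript, the ratio of the EIF2S1 level to the EIF2S2 level was 1.32 and 1.39 in the shCDK5RAP3 libraries and 0.861 and 0.805 in the shControl libraries, which rests on the median transcript lengths of 3437.5 and 2656 bases. Without division by length, EIF2S1 was above EIF2S2 in all 4 libraries. EIF2S3, the gamma subunit that binds GTP and tRNA, had 194 and 192 CPM in shCDK5RAP3 and 174 and 175 CPM in shControl and did not pass (0.15 ± 0.06, adjusted p = 0.0784). Its retrogene copy EIF2S3B stayed under 4 CPM in every library. The EIF2S2 call was lost without shCDK5RAP3 replicate 1 (0.0632) or replicate 2 (0.0883), in a range of 5.1e-05 to 0.0883. EIF2S3 passed with upper-quartile factors (0.0394, range 0.0187 to 0.268).

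Among the 5 genes of eIF2B, the complex that reloads eIF2 with GTP, 2 rose, 1 fell and 2 did not pass. The fall was that of EIF2B2, the beta subunit, at chr14:75002911-75012366 (GRCh38). It had 19.2 and 21.3 CPM in shCDK5RAP3, against 40.1 and 39.2 CPM in shControl, so that 51.1% of the control level was left (-0.97 ± 0.10, adjusted p = 7.68e-05). EIF2B5, the catalytic epsilon subunit, had 86.6 and 100 CPM in shCDK5RAP3, against 75.8 and 69.9 CPM in shControl (0.36 ± 0.08, adjusted p = 0.00854). EIF2B1, the alpha subunit of the regulatory core, had 109 and 109 CPM in shCDK5RAP3, against 90.5 and 88.6 CPM in shControl (0.29 ± 0.06, adjusted p = 0.00553). The groups did not overlap for any of the 5 genes, as for 71.4% of all tested genes and 81.6% of the abundant ones. The gamma subunit EIF2B3 and the delta subunit EIF2B4 had log2 changes of -0.18 ± 0.09 and -0.20 ± 0.08 and did not pass. Per kilobase, the EIF2B2 level was 4.45 and 4.93 in shCDK5RAP3 and 9.29 and 9.08 in shControl. Those of the other 4 subunits lay between 25.1 and 61.9 in every library. This gap rests in part on a median transcript length of 4314 bases for EIF2B2, against 1659 to 2380 for the others. In CPM, EIF2B3 had 45.7 and 50.8 in shControl, close to the 40.1 and 39.2 of EIF2B2. The EIF2B1 call was lost without shCDK5RAP3 replicate 1 (0.0641) or replicate 2 (0.0805, range 0.000188 to 0.0805). That of EIF2B5 was lost without replicate 2 (0.142) or without a filter (0.12, range 0.000191 to 0.142), and EIF2B4 passed as lower with library size alone (0.039) and without shControl replicate 1 (0.0401, range 0.0206 to 0.304).

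The eIF3 complex binds the small subunit, keeps it free for initiation and contacts eIF4G. Of its 14 genes, 7 rose, 1 fell and 6 did not pass, with log2 changes between -0.18 and 0.49. EIF3D, the subunit that can bind the cap of some mRNAs itself, had 319 and 325 CPM in shCDK5RAP3, against 229 and 231 CPM in shControl (0.49 ± 0.06, adjusted p = 0.00022). EIF3G, an RNA-binding subunit of the scanning side, had 208 and 215 CPM in shCDK5RAP3, against 143 and 163 CPM in shControl (0.47 ± 0.07, adjusted p = 0.00105). EIF3B, the scaffold of the same side, had 563 and 559 CPM in shCDK5RAP3, against 406 and 422 CPM in shControl (0.44 ± 0.06, adjusted p = 0.000323). Its partner EIF3I, a WD-repeat subunit, rose too, with 204 and 214 CPM in shCDK5RAP3 and 164 and 170 CPM in shControl (0.32 ± 0.06, adjusted p = 0.00314). EIF3B, EIF3G and EIF3I form 1 module of the complex, and each was higher in both shCDK5RAP3 libraries. They are named here as called rises, and the module was not tested as a set. Separation of the libraries by group, in either direction, was common and held for 13 of the 14 eIF3 genes. It also held for 81.6% of genes with a mean log2 CPM of at least 5. EIF3A, the large scaffold subunit and the most counted of the 14, had 599 and 592 CPM in shCDK5RAP3, against 646 and 656 CPM in shControl, and did not pass (-0.13 ± 0.05, adjusted p = 0.0815).

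Smaller changes passed for EIF3K (0.24), EIF3F (0.18) and EIF3H (0.17), which rose, and for EIF3L (-0.18), which fell. These 4 encode subunits of the core of the complex. EIF3L had 337 and 336 CPM in shCDK5RAP3, against 384 and 380 CPM in shControl (adjusted p = 0.0278). All 4 calls, the smallest in the complex, were lost in several alternatives. That of EIF3L was lost without shCDK5RAP3 replicate 1 (0.184), replicate 2 (0.172) or shControl replicate 1 (0.0598) and with upper-quartile factors (0.0579), in a range of 0.00238 to 0.184. EIF3F lost its call without shCDK5RAP3 replicate 1 (0.171) or replicate 2 (0.176), shControl replicate 1 (0.0802), a filter (0.0625) or TMM factors (0.0605), in a range of 0.003 to 0.176. EIF3H did so without any 1 library, its adjusted p being 0.147 and 0.269 without the first and second shCDK5RAP3 library and 0.0613 and 0.121 without the first and second control, in a range of 0.00601 to 0.269. EIF3K was lost without shCDK5RAP3 replicate 2 (0.38, with a log2 change of 0.13 in place of 0.24) or shControl replicate 2 (0.113), without a filter (0.24), with library size alone (0.065), in limma (0.0549) and in DESeq2 (0.0844), in a range of 0.00648 to 0.38. Without shCDK5RAP3 replicate 2, EIF3G (0.0552, range 1.97e-07 to 0.0552) and EIF3I (0.0822, range 1.38e-05 to 0.0822) were lost as well. EIF3M passed as higher without shControl replicate 2 (0.0164) and with upper-quartile factors (0.0435), in a range of 0.0053 to 0.379. Library size alone added falls of EIF3A (0.0385, range 0.0198 to 0.298) and EIF3CL (0.0295, range 0.00809 to 0.386). EIF3C and EIF3CL are near-identical copies whose reads cannot be assigned with certainty, and their log2 changes were -0.05 ± 0.07 and -0.16 ± 0.06, neither of which passed.

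Among the 11 tested genes of eIF4F and its helpers, 6 rose, 3 fell and 2 did not pass, and the widest change of all members was here. EIF4G3, at chr1:20806292-21176888 on the minus strand (GRCh38), encodes the second of the full-length eIF4G scaffolds. It had 73.6 and 67.8 CPM in shCDK5RAP3, against 206 and 180 CPM in shControl. Both shCDK5RAP3 libraries lay far under both controls, at 36.6% of the control mean (-1.45 ± 0.08, adjusted p = 4.37e-06). EIF4G1, the main scaffold, had 788 and 752 CPM in shCDK5RAP3, against 597 and 585 CPM in shControl, and was higher in both (0.38 ± 0.06, adjusted p = 0.000637). EIF4G2, a shorter relative that lacks the eIF4E-binding part and serves cap-independent initiation, had 1564 and 1604 CPM in shCDK5RAP3, against 1190 and 1134 CPM in shControl (0.45 ± 0.05, adjusted p = 0.000186). Per kilobase, the EIF4G1 level was 11.8 and 12.2 times that of EIF4G3 in the shCDK5RAP3 libraries and 3.21 and 3.58 times in the shControl libraries. EIF4G3 made up 2.19% and 2.00% of the level of the 3 genes in shCDK5RAP3 and 7.59% and 6.98% in shControl.

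The helicase genes also moved apart. EIF4A1, the abundant form, at chr17:7572706-7579005, had 579 and 583 CPM in shCDK5RAP3, against 720 and 771 CPM in shControl (-0.36 ± 0.06, adjusted p = 0.0011). EIF4A2, a close paralog also linked to microRNA repression, had 436 and 440 CPM in shCDK5RAP3, against 324 and 342 CPM in shControl (0.39 ± 0.06, adjusted p = 0.000752). Neither gene's groups overlapped, and per kilobase the EIF4A1 level was 1.54 and 1.53 times that of EIF4A2 in shCDK5RAP3 and 2.57 and 2.61 times in shControl. EIF4A3, the related helicase of the exon junction complex, had 161 and 161 CPM in shCDK5RAP3, against 121 and 128 CPM in shControl (0.37 ± 0.06, adjusted p = 0.00159). EIF4B, an RNA-binding protein that stimulates eIF4A and is a substrate of S6 kinase, at chr12:53006158-53042209, had 634 and 644 CPM in shCDK5RAP3, against 904 and 900 CPM in shControl (-0.50 ± 0.05, adjusted p = 0.000109). EIF4H, the other eIF4A stimulator, had the opposite sign, with 640 and 659 CPM in shCDK5RAP3 and 567 and 567 CPM in shControl (0.20 ± 0.05, adjusted p = 0.0176). Rows that overlap EIF4A1 on its strand, SENP3-EIF4A1 and AC016876.2, can share its reads. With their counts added to it, a choice made after the data were seen, the log2 change was -0.31 ± 0.06 (adjusted p = 0.00212).

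**Figure D3:**
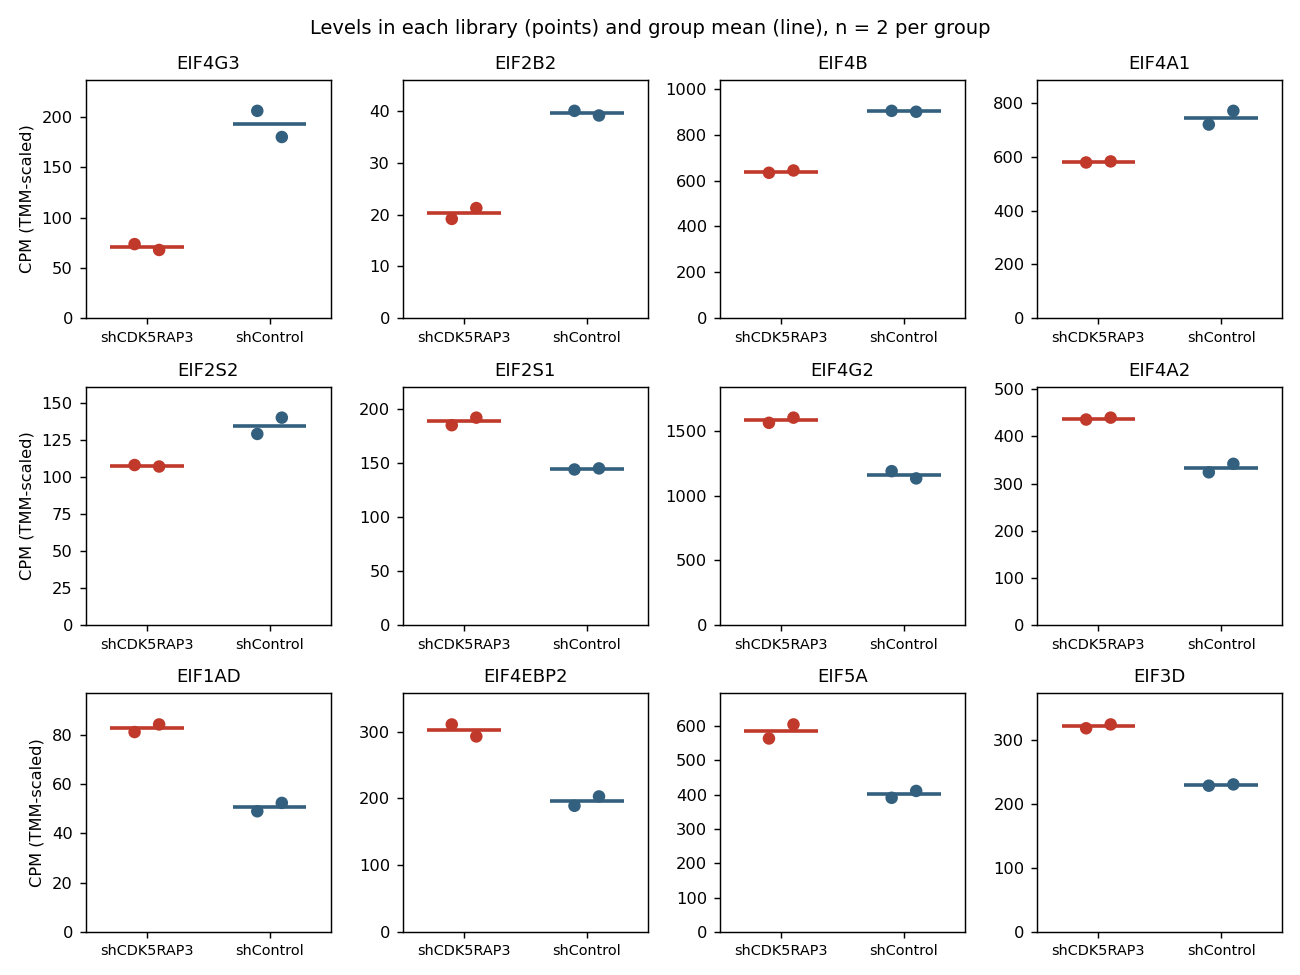
Levels of 12 factors in TMM-scaled CPM (vertical axes, each from 0), 1 panel a gene, with shCDK5RAP3 left of shControl. Points are libraries and lines are group means of 2 libraries. EIF4G3, EIF2B2, EIF4B, EIF4A1 and EIF2S2 are lower in both shCDK5RAP3 libraries and the other 7 genes higher, with no overlap in any panel. Only called members with separate groups are shown, so the lack of overlap is no separate result. The groups did not overlap for 71.4% of all tested genes and 81.6% of those with a mean log2 CPM of at least 5.

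The cap-binding proteins differed less. EIF4E, the cap-binding subunit, had 74.3 and 82.0 CPM in shCDK5RAP3 and 78.8 and 89.0 CPM in shControl, and the groups overlapped (-0.10 ± 0.08, adjusted p = 0.36). EIF4E2, a cap-binding homolog known for repressing mRNAs, had 105 and 112 CPM in shCDK5RAP3, against 83.1 and 88.0 CPM in shControl (0.34 ± 0.07, adjusted p = 0.00382). The ratio of EIF4E to EIF4E2 per kilobase was 0.875 and 0.899 in shCDK5RAP3 and 1.17 and 1.25 in shControl. It rests on median transcript lengths of 1114.5 and 1372 bases. In CPM, EIF4E was above EIF4E2 only in shControl replicate 2, and barely so. EIF4E3, the third homolog, had 20.2 and 18.9 CPM in shCDK5RAP3 and 23.2 and 22.0 CPM in shControl and did not pass (-0.21 ± 0.10, adjusted p = 0.137). Pseudogene rows named after EIF4E held counts equal to 12.6% of its own, the highest such share among the members. Within eIF4F, EIF4A3 lost its call without shCDK5RAP3 replicate 2 (0.0525, range 4.92e-06 to 0.0525). EIF4E2 lost it without that library (0.0906) or without a filter (0.0535, range 2.61e-05 to 0.0906). EIF4H lost it without shCDK5RAP3 replicate 1 (0.0911), replicate 2 (0.175) or a filter (0.0625, range 0.000986 to 0.175).

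The eIF4E inhibitors bind eIF4E in place of eIF4G until mTORC1 phosphorylates them. EIF4EBP2, the form best known from neurons, at chr10:70404379-70428618, had 311 and 293 CPM in shCDK5RAP3, against 189 and 203 CPM in shControl, a rise in both libraries (0.62 ± 0.07, adjusted p = 0.000121). EIF4EBP1, the main form in most cells, had 142 and 168 CPM in shCDK5RAP3 and 159 and 177 CPM in shControl, and the groups overlapped (-0.11 ± 0.09, adjusted p = 0.358). Per kilobase, the level of EIF4EBP2 was 0.308 and 0.244 of that of EIF4EBP1 in shCDK5RAP3 and 0.168 and 0.161 in shControl. This order rests on median transcript lengths of 7257 bases for EIF4EBP2 and 1020 for EIF4EBP1. In CPM, EIF4EBP2 was above EIF4EBP1 in every library. EIF4EBP3 was scarce, with 43 and 40 counts in shCDK5RAP3 and 85 and 85 counts in shControl (-1.03 ± 0.26, adjusted p = 0.0106). That call was lost without shCDK5RAP3 replicate 2 (0.0756) and in DESeq2 (0.0646), in a range of 0.00618 to 0.0756. EIF4EBP3 also overlaps the read-through gene ANKHD1-EIF4EBP3, whose row held 3193 and 3248 counts in shCDK5RAP3 and 4514 and 3656 counts in shControl (log2 change -0.35, adjusted p = 0.0176), so the reads of the small gene are uncertain. EIF4ENIF1, which carries eIF4E into the nucleus, did not pass (-0.12 ± 0.09, adjusted p = 0.348).

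**Figure D4:**
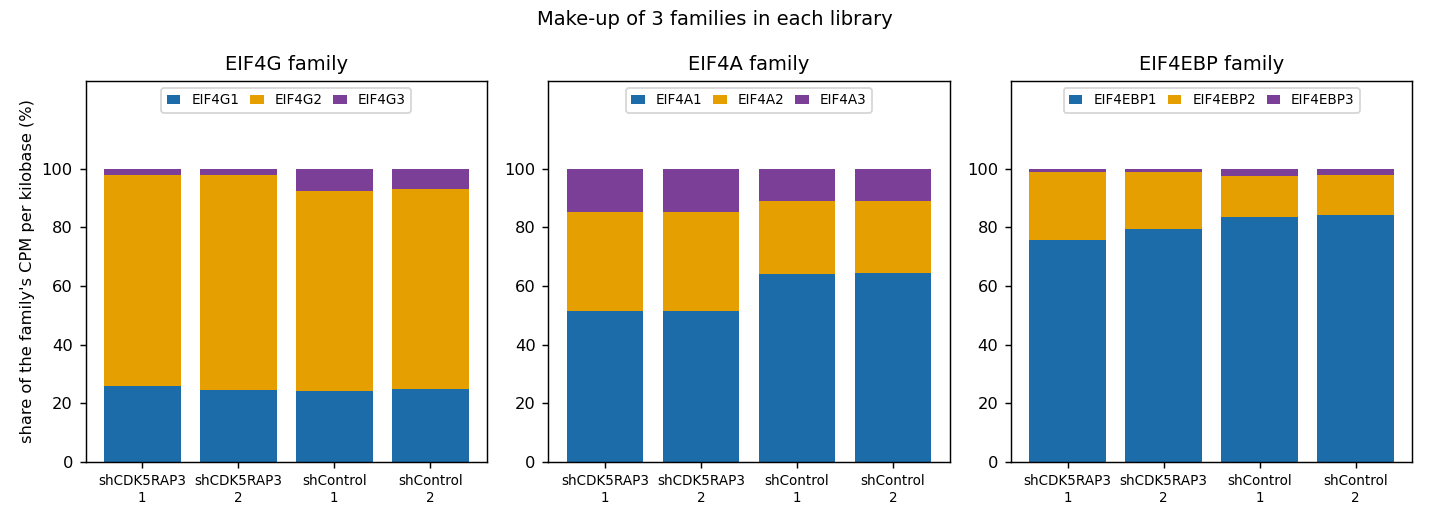
Share of each gene in the summed CPM per kilobase of its family (vertical axis, %), for the EIF4G, EIF4A and EIF4EBP families, in each shCDK5RAP3 and shControl library. The shares rest on the median transcript lengths used. EIF4G3 is 2.19% and 2.00% against 7.59% and 6.98%, EIF4A1 is 51.6% and 51.6% against 64.0% and 64.3%, and EIF4EBP2 is 23.2% and 19.5% against 14.0% and 13.6%.

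EIF5A and its paralog are the proteins known to carry hypusine, a modified lysine, and EIF5A helps the ribosome through hard peptide bonds such as runs of proline. EIF5A had 564 and 605 CPM in shCDK5RAP3, against 391 and 411 CPM in shControl (0.54 ± 0.06, adjusted p = 0.000171). EIF5A2, its less abundant paralog, had 20.1 and 18.3 CPM in shCDK5RAP3, against 13.8 and 14.3 CPM in shControl (0.45 ± 0.12, adjusted p = 0.0134). Both were higher in both libraries, and the per-kilobase ratio of EIF5A to EIF5A2 was 12.3 and 14.5 in shCDK5RAP3 and 12.4 and 12.5 in shControl. The size of this ratio rests on a median coding transcript length of 570 bases for EIF5A2 and would be larger with a longer transcript. EIF5AL1, a retrogene copy of EIF5A that may share its reads, did not pass (0.36 ± 0.15, adjusted p = 0.093). EIF6, which keeps the large ribosomal subunit from joining early, had 121 and 139 CPM in shCDK5RAP3, against 96.7 and 103 CPM in shControl (0.38 ± 0.08, adjusted p = 0.00496). The EIF5A2 call was lost without shCDK5RAP3 replicate 1 (0.111), replicate 2 (0.065) or a filter (0.0554, range 0.0037 to 0.111). EIF6 lost its call without shCDK5RAP3 replicate 2 (0.104) or a filter (0.092, range 7.25e-06 to 0.104).

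The elongation factors were the most abundant role and held 1.49% and 1.51% of the counts in shCDK5RAP3 and 1.5% and 1.48% in shControl. Of 8 tested genes 3 rose, none fell and 5 did not pass, and the groups did not overlap for any of the 8, as for 71.4% of all tested genes and 81.6% of the abundant ones. EEF1A1, which delivers aminoacyl-tRNA and had the highest level of all members, had 8498 and 8829 CPM in shCDK5RAP3, against 9248 and 9433 CPM in shControl, just short of passing (-0.11 ± 0.04, adjusted p = 0.0538). EEF1A2, its form in neurons and muscle, had 126 and 125 CPM in shCDK5RAP3, against 104 and 122 CPM in shControl (0.16 ± 0.08, adjusted p = 0.162). EEF1A1 was the larger of the pair in each library, at 39.3 and 41.1 times the per-kilobase level of EEF1A2 in shCDK5RAP3 and 52.0 and 45.2 times in shControl. EEF2, the translocase, had 3621 and 3635 CPM in shCDK5RAP3, against 3295 and 3188 CPM in shControl (0.16 ± 0.04, adjusted p = 0.016). EEF1B2, the exchange factor that reloads eEF1A with GTP, had 455 and 512 CPM in shCDK5RAP3, against 404 and 423 CPM in shControl (0.23 ± 0.07, adjusted p = 0.0288). EEF1D, EEF1E1 and EEFSEC encode another exchange subunit, a protein of the tRNA synthetase complex and the selenocysteine factor, and had changes of 0.16 ± 0.08, 0.21 ± 0.09 and -0.14 ± 0.08 that did not pass.

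EEF2 lost its call without shCDK5RAP3 replicate 1 (0.104), replicate 2 (0.147), shControl replicate 2 (0.0633) or a filter (0.0779), in a range of 0.00187 to 0.147. EEF1B2 lost it without shCDK5RAP3 replicate 2 (0.302, with a log2 change of 0.13 in place of 0.23), shControl replicate 1 (0.0768) or a filter (0.192), in a range of 0.00046 to 0.302. EEF1A1, in turn, passed as lower with library size alone (0.0126) and with a filter of 1 CPM in 2 libraries (0.0239, range 0.0126 to 0.383). EEF1A2 passed as higher without shControl replicate 2 (0.0104, range 0.0104 to 0.713) and EEF1D without shControl replicate 1 (0.0136, range 0.0136 to 0.614).

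EEF1G, the gamma subunit that anchors the exchange complex, had the largest change of the role, with 55933 and 58187 counts in shCDK5RAP3 and 43391 and 34952 counts in shControl (0.54 ± 0.09, adjusted p = 0.00132). Its locus, chr11:62559601-62574086 on the minus strand, overlaps a longer coding gene row on the same strand, AP002990.1. That row held 2164 and 10209 counts in shCDK5RAP3 and 2446 and 13882 counts in shControl, high in the second library of each group. With the rows summed there were 58097 and 68396 counts in shCDK5RAP3 and 45837 and 48834 counts in shControl, still without overlap. The log2 change of EEF1G with those counts added was 0.41 ± 0.07 (adjusted p = 0.00123). The call on EEF1G alone was lost without shCDK5RAP3 replicate 2 (0.0618) or without a filter (0.0751), in a range of 1.18e-08 to 0.0751.

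**Figure D5:**
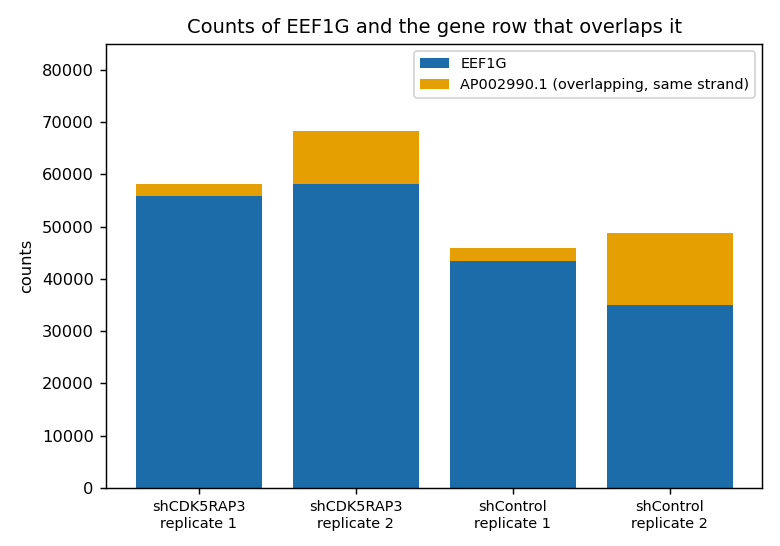
Counts (vertical axis) of EEF1G and of AP002990.1, the coding gene row that overlaps it on the same strand, stacked for each library. The sums are 58097 and 68396 in shCDK5RAP3 and 45837 and 48834 in shControl, and the overlapping row is large in replicate 2 of both groups.

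Many other members overlap a gene on the opposite strand, such as EIF2S2 with RALY, EIF1AD with BANF1 and EIF2B1 with DDX55. Whether counting used the strand is not stated in the labels, so reads of such pairs may not be told apart. BANF1 had 8884 and 10481 counts in shCDK5RAP3 and 7460 and 8768 counts in shControl. These are counts not scaled for depth. RALY had 8369 and 9482 counts in shCDK5RAP3 and 7797 and 8352 counts in shControl, so both shCDK5RAP3 counts were above both control counts, while EIF2S2 was lower. DDX55 had 2051 and 2087 counts in shCDK5RAP3 and 1180 and 1248 counts in shControl, higher in the same libraries as EIF2B1, and the BANF1 counts were higher in the same libraries as EIF1AD.

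Across the 48 members with a promoter in the RefSeq table, 25 (52.1%) held a pyrimidine run of the kind printed above. The run had to start within 10 bases of a RefSeq start on the gene's strand. The share was 38.4% of all 27305 genes in that table, tested here or not. Among tested genes in it, 4797 held a run and 6531 did not. Of the 24 tested members with a run, 15 rose and 2 fell (EIF4B and EIF4G3), with a median log2 change of 0.21. Of the 22 tested members with a promoter but no run, 9 rose and 4 fell, with a median of 0.06. Over all tested genes in the table, 20.8% rose and 27.3% fell of 4797 with a run, and 23.9% rose and 24.1% fell of 6531 without one. The difference between members with and without a run was not tested. The 6 genes printed differed: EIF4A2 had a log2 change of 0.39, EEF1B2 of 0.23, EIF3F of 0.18, EEF2 of 0.16 and EEF1A1 of -0.11. EIF4B had -0.50, and its run begins at base 11 of the annotated mRNA and so after the start. Other counted runs lie wholly before the annotated start and so outside the annotated mRNA. These are the runs of EIF2B5, EIF4EBP2, EIF5, EIF5A2 and EIF6, which rose, EIF4G3, which fell, and EIF1 and EIF3C, which did not pass. The 6-letter E-box CACGTG is a site known to be bound by MYC proteins and is the same on both strands. It was found within the 250 bases before to 50 after a start in 12 of the 48 members (25.0%). The share was 8.77% of all 27305 genes in the RefSeq table, tested here or not. Among tested genes in it, 1423 held the E-box and 9905 did not. The 12 with it, all tested, had 6 rises, 2 falls and a median log2 change of 0.04, and the 34 tested members without it had 18 rises, 4 falls and a median of 0.26. Over all tested genes, 23.6% rose and 27.3% fell of 1423 with the E-box, and 22.4% rose and 25.2% fell of 9905 without it. The split of the members was not tested either. These are matches of letters, and binding was not measured.

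The 7-base words AACACCT and ACACCTA were picked in earlier work on these same counts, where 3′ UTRs holding them went with lower levels, so their link to a fall is no independent evidence here. In GENCODE 29, 2076 of 13560 tested coding genes (15.3%) held a word in the longest annotated 3′ UTR, and their median log2 change was -0.24, against 0.01 for the others. Their 3′ UTRs were longer, with a median of 3086 bases against 1173. Among 57 members with an annotated 3′ UTR, 8 held a word. Of all tested genes with a word 42.6% fell and 14.2% rose. Among the 8 members EIF2S2, EIF4A1 and EIF4B fell, EIF2S1 rose, and EIF1, EIF3A, EIF4E and EIF4E3 did not pass. EIF4G3, EIF2B2 and EIF4EBP3, the 3 deepest falls, held neither word. The sites of the 4 called genes are shown because EIF2S1 and EIF2S2, subunits of the same factor with opposite changes, both carry AACACCT. Capitals mark AACACCT, and the site of EIF4A1 lies before the stop codon in 1 of its 4 transcripts. In EIF2S1 the base after the capitals completes the overlapping word ACACCTA, and EIF2S1 was the only member with both words.
EIF2S2, first site: ttgcctactttAACACCTgtcagagaaac
EIF2S2, second site: aagtgttgtcaAACACCTtggctaaaaca
EIF4A1: agaccttctacAACACCTccattgaggaa
EIF4B: attagcggagaAACACCTtgatcttggtt
EIF2S1: taattcagatgAACACCTatcgatattca

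Other genes of translation were read from 5 lists chosen by function, beside the same 19.7% of tested genes higher and 21.8% lower. Among genes with a mean log2 CPM of at least 5, those shares were 33.7% and 25.5%. Of 8 genes that set the phosphorylation or assembly of eIF2, 4 rose and 1 fell. PPP1R15A and PPP1R15B, which guide the phosphatase to eIF2, had log2 changes of 0.79 ± 0.13 (adjusted p = 0.00103) and 0.75 ± 0.07 (adjusted p = 4.1e-05). CDC123, an assembly chaperone of eIF2, rose by 0.41 ± 0.07 (adjusted p = 0.00107). EIF2AK3, the eIF2 kinase PERK of the endoplasmic reticulum, had 29.2 and 28.6 CPM in shCDK5RAP3, against 23.2 and 24.4 CPM in shControl (0.28 ± 0.09, adjusted p = 0.0401). That call was lost without any 1 library (0.163, 0.153, 0.143 and 0.0564), without a filter (0.0819), with library size alone (0.0636) and in DESeq2 (0.135), in a range of 0.0198 to 0.163. IMPACT, an inhibitor of the kinase GCN2, fell (-0.50 ± 0.10, adjusted p = 0.00341), but not without shCDK5RAP3 replicate 1 (0.0556, range 0.00014 to 0.0556).

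Of 16 tested genes of the eEF2 kinase and the enzymes that modify elongation factors, 2 rose and 7 fell. DOHH, the enzyme that completes hypusine on EIF5A, had 60.1 and 66.6 CPM in shCDK5RAP3, against 29.2 and 37.4 CPM in shControl (0.93 ± 0.12, adjusted p = 0.000295). DHPS, which makes the first step of hypusine, had the opposite sign, with 63.5 and 64.4 CPM in shCDK5RAP3 and 71.3 and 82.1 CPM in shControl (-0.26 ± 0.08, adjusted p = 0.0291); it was named after its value was seen. EEF2K, the kinase that stops eEF2, fell by 0.47 on the log2 scale (SE 0.08, adjusted p = 0.00149). DPH3, a protein needed to build diphthamide on eEF2, rose by 0.75 ± 0.11 (adjusted p = 0.000845), whereas DPH6, the enzyme of the last step, had a change of -0.51 ± 0.15 (adjusted p = 0.0234). EEF2KMT, which methylates eEF2, and N6AMT1, whose known target is the release factor ETF1, both changed by -0.49 (adjusted p = 0.0043 and 0.0195). The DHPS call was lost without shCDK5RAP3 replicate 1 (0.197) or replicate 2 (0.176), shControl replicate 2 (0.155, with a log2 change of -0.16) or a filter (0.146), and with upper-quartile factors (0.0515, range 0.00208 to 0.197). DPH6 was lost without shCDK5RAP3 replicate 2 (0.162), shControl replicate 1 (0.0698) or a filter (0.0925, range 0.00624 to 0.162). EEF2KMT was lost without shCDK5RAP3 replicate 2 (0.0683, range 0.000453 to 0.0683). N6AMT1 was lost without either shCDK5RAP3 library (0.0764 and 0.118), without shControl replicate 1 (0.0549) and in DESeq2 (0.0532), in a range of 0.0094 to 0.118.

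Of 19 genes of mTORC1 signalling and cap or poly(A) binding, 5 rose and 5 fell. PABPC4, a poly(A)-binding protein that contacts eIF4G, had the widest change of the lists, with 109 and 105 CPM in shCDK5RAP3, against 239 and 242 CPM in shControl (-1.17 ± 0.06, adjusted p = 3.15e-06). PABPC1, the main poly(A)-binding protein, had 926 and 913 CPM in shCDK5RAP3, against 971 and 966 CPM in shControl, and did not pass (-0.07 ± 0.05, adjusted p = 0.272); it was named after its value was seen. PAIP2 and PAIP2B, which hold poly(A)-binding protein off the mRNA, had opposite signs at 0.45 ± 0.06 (adjusted p = 0.000588) and -0.67 ± 0.17 (adjusted p = 0.012). The S6 kinases did too, RPS6KB1 at -0.58 ± 0.08 (adjusted p = 0.000658) and RPS6KB2 at 0.40 ± 0.07 (adjusted p = 0.00163). MKNK2, a kinase of eIF4E, rose by 0.57 ± 0.06 (adjusted p = 0.000158). TSC1, an upstream inhibitor of mTORC1, rose by 0.36 ± 0.08 (adjusted p = 0.00709), and MLST8, a subunit of mTORC1, had a change of -0.30 ± 0.09 (adjusted p = 0.0263). The remaining calls were RPTOR, another mTORC1 subunit, which rose by 0.34 ± 0.07 (adjusted p = 0.00389), and PDCD4, an inhibitor of eIF4A, at -0.21 ± 0.06 (adjusted p = 0.0222). RPTOR lost its call without shCDK5RAP3 replicate 1 (0.0692, range 3.47e-05 to 0.0692). PDCD4 lost it without shCDK5RAP3 replicate 1 (0.185), replicate 2 (0.128) or a filter (0.05), in a range of 0.00253 to 0.185. The PAIP2B call was lost without shCDK5RAP3 replicate 1 (0.097), replicate 2 (0.0637) or a filter (0.0575, range 0.00464 to 0.097). RPS6KB2 was lost without replicate 2 of shCDK5RAP3 (0.0574, range 8e-06 to 0.0574) and TSC1 without replicate 1 (0.0992) or a filter (0.0816, range 6.36e-05 to 0.0992). MLST8 was lost without shCDK5RAP3 replicate 1 (0.268, with a log2 change of -0.19), replicate 2 (0.0714), shControl replicate 2 (0.0907) or a filter (0.179, range 0.00032 to 0.268).

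Of 12 other initiation factors 4 rose and 4 fell. BZW1, a mimic of eIF5, had 435 and 449 CPM in shCDK5RAP3, against 249 and 249 CPM in shControl (0.83 ± 0.06, adjusted p = 1.25e-05), while its paralog BZW2 had a change of -0.36 ± 0.06 (adjusted p = 0.00159). The nuclear cap-binding subunits were split, NCBP1 at 0.65 ± 0.06 (adjusted p = 5.8e-05) and NCBP2 at -0.69 ± 0.07 (adjusted p = 7.7e-05). EIF2D, which can bring tRNA to the ribosome without eIF2 and acts in recycling, had 22.7 and 20.5 CPM in shCDK5RAP3, against 42.9 and 38.0 CPM in shControl (-0.91 ± 0.10, adjusted p = 0.000171). DENR, a recycling factor related to it, rose by 0.39 ± 0.07 (adjusted p = 0.00157). Of the helicases of scanning, DDX3X rose by 0.50 ± 0.06 (adjusted p = 0.000226) and DHX29 changed by -0.35 ± 0.08 (adjusted p = 0.00753). DENR was lost without shCDK5RAP3 replicate 2 (0.0602, range 2.66e-06 to 0.0602), and DHX29 without shCDK5RAP3 replicate 1 (0.104), replicate 2 (0.0567) or a filter (0.0591, range 0.000561 to 0.104).

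Of 10 genes of termination and ribosome rescue 7 rose, none fell and 3 did not pass. All of the 10 but GSPT2 had a mean log2 CPM of at least 5, where 33.7% of genes rose and 25.5% fell. ETF1, which reads stop codons, had 312 and 326 CPM in shCDK5RAP3, against 209 and 206 CPM in shControl (0.62 ± 0.06, adjusted p = 6.83e-05). LTN1, the ubiquitin ligase that marks stalled chains, had 52.9 and 51.8 CPM in shCDK5RAP3, against 35.3 and 30.8 CPM in shControl (0.66 ± 0.09, adjusted p = 0.000449). HBS1L and PELO, the pair that frees stalled ribosomes, rose by 0.55 ± 0.07 (adjusted p = 0.000246) and 0.47 ± 0.08 (adjusted p = 0.0017). The groups of these 4 genes did not overlap, as for 71.4% of all tested genes and 81.6% of the abundant ones. ASCC3, also among the 7, had a smaller rise (0.23 ± 0.07, edgeR adjusted p = 0.0357). Its call was lost with library size alone (0.0559), without a filter (0.163) and in DESeq2 (0.0731). Leaving out 1 library, its log2 change ranged from 0.15 to 0.31.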

How the data were processed

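Total RNA of 4 SK-N-BE(2) libraries was extracted with TRIzol and prepared with an Illumina TruSeq kit, per the labels' protocols. The authors deposited whole-number counts per Ensembl gene, not scaled between libraries. HISAT2 2.2.0, StringTie and hg38 are named in the submitters' processing notes, with no role or order. The annotation, the strand setting and the handling of multiply mapped reads are not stated in the labels and could shift counts between paralogs, pseudogenes and overlapping genes. Symbols came from GENCODE 29 and a table of gene names (56591 rows matched, 7661 did not and held 1.82% to 1.90% of a library's counts). Unmatched rows stayed in the library sizes and tests.

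Counts were tested in R 4.3.3 with edgeR 4.0.16: TMM factors, the default filter by group, estimateDisp and the quasi-likelihood test, without a block. P-values were adjusted by Benjamini-Hochberg over all 18775 tested genes, at a threshold of 0.05. Log2 changes are shCDK5RAP3 over shControl, and an SE is the change divided by the square root of F. CPM use TMM-scaled library sizes, and levels per kilobase divide them by the median length of a gene's basic coding transcripts. The biological coefficient of variation was 0.0959. Where a library had no count for a gene, up to 3 counts (0.103 CPM) are possible by counting error alone. Counts differed more between groups (chi-square per degree of freedom 77.3 to 87.9) than within shCDK5RAP3 (6.81) or shControl (8.67). The within-group values show that the libraries of a group differed, so none was an exact copy of another. They do not show whether the libraries came from separate cultures.

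The members and lists were chosen with earlier results of these data known. Values per library are given for called members with separate groups (up to 4 per direction and role). They are also given for the most counted member of each role and for paralog pairs. Called genes of the other lists are named up to 4 per direction, with DHPS, PABPC1, RPTOR, PDCD4 and ASCC3 added after their values were seen. Alternatives were RLE, upper-quartile and library-size scaling, 2 other filters, a robust fit, limma-trend 3.58.1, DESeq2 1.42.0, a replicate block, summed rows, pseudogene or copy counts added, an adjusted p under 0.01 and leaving out each library in turn. The lone library left in a group is then assumed to vary like the other group. Adding overlapping rows to EEF1G and EIF4A1 was chosen after seeing the data.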

Additional observations from a re-analysis of the deposited data

How the results depend on the processing

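Of 26 rises 10 and of 8 falls 4 (EIF4G3, EIF2B2, EIF4B and EIF4A1) kept their call in every alternative that could be run for them. Without a filter on low counts the calls over all genes numbered 4488 in place of 7792, those of members 22 in place of 34 and the rises 15 in place of 26. The cause was not tested. Falls numbered 13 with the replicate block and 5 at an adjusted p of 0.01, in place of 8. Leaving out 1 library gave 3752 to 7329 calls over all genes, 14 to 33 members called, 10 to 25 rises, 4 to 8 falls and 25 to 37 calls in the 5 other lists (39 with all libraries). The fewest calls came without shCDK5RAP3 replicate 2 in each of these counts. Changes with opposite sign were all of uncalled genes. EIF1 had a log2 change of -0.02 with library size alone. Leaving out 1 library, EIF1 ranged from -0.03 to 0.05, EIF2S3B from -0.08 to 0.27, EIF3C from -0.10 to 0.01 and EIF4EBP1 from -0.24 to 0.01.

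Equal replicate numbers share only a number in the labels, and over 18775 genes the deviations of replicate 1 in both groups correlated at 0.0534. With that block 44 members passed (31 higher, 13 lower) and 9148 genes in all. The members it added were EEF1A2, EEF1D, EEF1E1, EIF2S3 and EIF3M as higher and EEF1A1, EIF2B4, EIF3A, EIF3CL and EIF3J as lower. With 2 libraries a group, changes under about 0.2 on the log2 scale are near the limit of what passed.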
